A study of Mus musculus with 4 samples.

Results

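The genes of oxidative phosphorylation were followed in single cells of the mouse aorta. Members were taken by their symbols, as the 13 protein-coding genes of the mitochondrial DNA (symbols that start with mt) and the 90 nuclear genes whose symbols mark them as parts of respiratory complexes I to V (the Nduf, Sdh, Uqcr, Cox4 to Cox8 and Atp5 families). These were 103 of the 18767 genes in the deposited table, and all 991 deposited cells were used. The study profiled aortic cells by SORT-seq, in which single cells are sorted into the wells of a plate and each transcript is tagged with a random barcode (a unique molecular identifier, UMI) and counted at its 3′ end. There were 4 libraries. Libraries s001 and s002 were labelled Jag1 ECKO, the study's name for mice with floxed Jag1 and a tamoxifen-inducible Cre driven by the endothelial Cdh5 promoter. Libraries s003 and s004 were labelled Jag1 ECWT, which were floxed mice without Cre. Both genotypes were on a C57BL/6J background. The aortas of age- and sex-matched mice were taken from the root to below the iliac artery, and living CD31+ CD45- cells were sorted. The labels give neither an age nor a treatment for these libraries, and say nothing of how many mice went into each, so p-values measure the spread between libraries, which may be technical.

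Oxidative phosphorylation passes electrons from NADH and succinate along complexes I to IV of the inner mitochondrial membrane to oxygen, and the proton gradient this builds drives ATP synthase, complex V. Every complex except complex II is built from subunits of both genomes: the mitochondrial DNA encodes the membrane core of complexes I, III, IV and V, and the nuclear genome encodes the rest and the factors that assemble them. Mitochondrial genes are transcribed as long polycistronic RNAs that are cut and given poly(A) tails inside the organelle, whereas nuclear subunits are transcribed 1 gene at a time and translated in the cytosol. Endothelial cells are known for relying largely on glycolysis for their ATP.

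The libraries held 272, 273, 165 and 281 cells (s001 to s004), with totals of 903943 to 1850430 counts and a median of 1522.5 to 2216 genes per cell. Jag1 itself was not lower under the Jag1 ECKO label. It stood at 166 and 70.3 CPM (the count per 1000000 counts of the library) in s001 and s002, labelled Jag1 ECKO, and at 31.0 and 25.03 CPM in s003 and s004 (log2 difference 2.07, SE 0.38, edgeR's quasi-likelihood test with Benjamini-Hochberg adjusted p = 0.384). The deleted exons are not given in the sources used here, and if the counted 3′ end lies outside them these counts are no check of the deletion. The study assayed Jag1 in mice of this cross by qRT-PCR and en face staining as well, which were not analysed here. Whether the labels of the 2 pairs of libraries are exchanged was not tested, and exchanged labels would turn every direction between labels below. These directions are therefore of the libraries as labelled, and not of a measured loss of Jag1. Markers were checked against the endothelial sort: all 12 endothelial cell (EC) markers were detected, at a summed 10092 to 11996 CPM, against 1195 to 2026 CPM for the 8 fibroblast markers, 385 to 3051 CPM for the 8 vascular smooth muscle cell (VSMC) markers and 0.9 to 5.8 CPM for the 4 leukocyte markers in the table. The 3 red blood cell markers in the table reached 1052 CPM in s001 and at most 1.3 CPM in the other libraries. Rn45s, the ribosomal RNA precursor, held a median of 4.76 to 9.63% of a cell's counts. Of the 373 cell barcodes, 324 occurred in more than 1 library and 86 in all 4, since the plates reuse 1 set of barcodes.

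Most mitochondrial-encoded members were far higher in level than the nuclear-encoded ones. The median of the 13 was 3244 CPM, against 82.2 CPM over the 90 nuclear-encoded members (means over the 4 libraries). Of the 13, mtNd6 stood below the nuclear median, and mtAtp8 and mtNd4l, at 203 and 401 CPM in s002, stood below the highest nuclear-encoded member, Cox6a1, in that library. Summed, the mitochondrial-encoded members made up 5.43, 4.0, 5.11 and 5.57 times the counts of all nuclear-encoded members in s001 to s004. A UMI is counted at the 3′ end of a transcript whatever its length, so CPM were not divided by length.

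Among the mitochondrial-encoded members, mtAtp6, the proton-channel subunit a of ATP synthase, was highest, with 11077, 6271, 9036 and 8869 CPM in s001 to s004. The complex I subunit mtNd4 had 7029, 6648, 6859 and 7059 CPM, mtCytb, the cytochrome b of complex III, 6929, 3689, 6374 and 6446 CPM, and mtCo2, which takes electrons from cytochrome c into complex IV, 6724, 3551, 5541 and 5619 CPM. For all of these s002 was the lowest library. The other 2 core subunits of complex IV stood at a mean of 4315 CPM for mtCo1 and 2485 CPM for mtCo3 (SD 907 and 424, n = 4 libraries). In complex I, mtNd2 and mtNd1 averaged 4657 and 3244 CPM (SD 391 and 218), mtNd5 1735 CPM (SD 419), mtNd3 1098 CPM (SD 236) and mtNd4l 614 CPM (SD 145). Lowest of all was mtNd6, the single member on the minus strand of the mitochondrial DNA, at 12.2, 9.19, 24.3 and 14.1 CPM, or 75 UMIs over all cells.

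**Figure D1:**
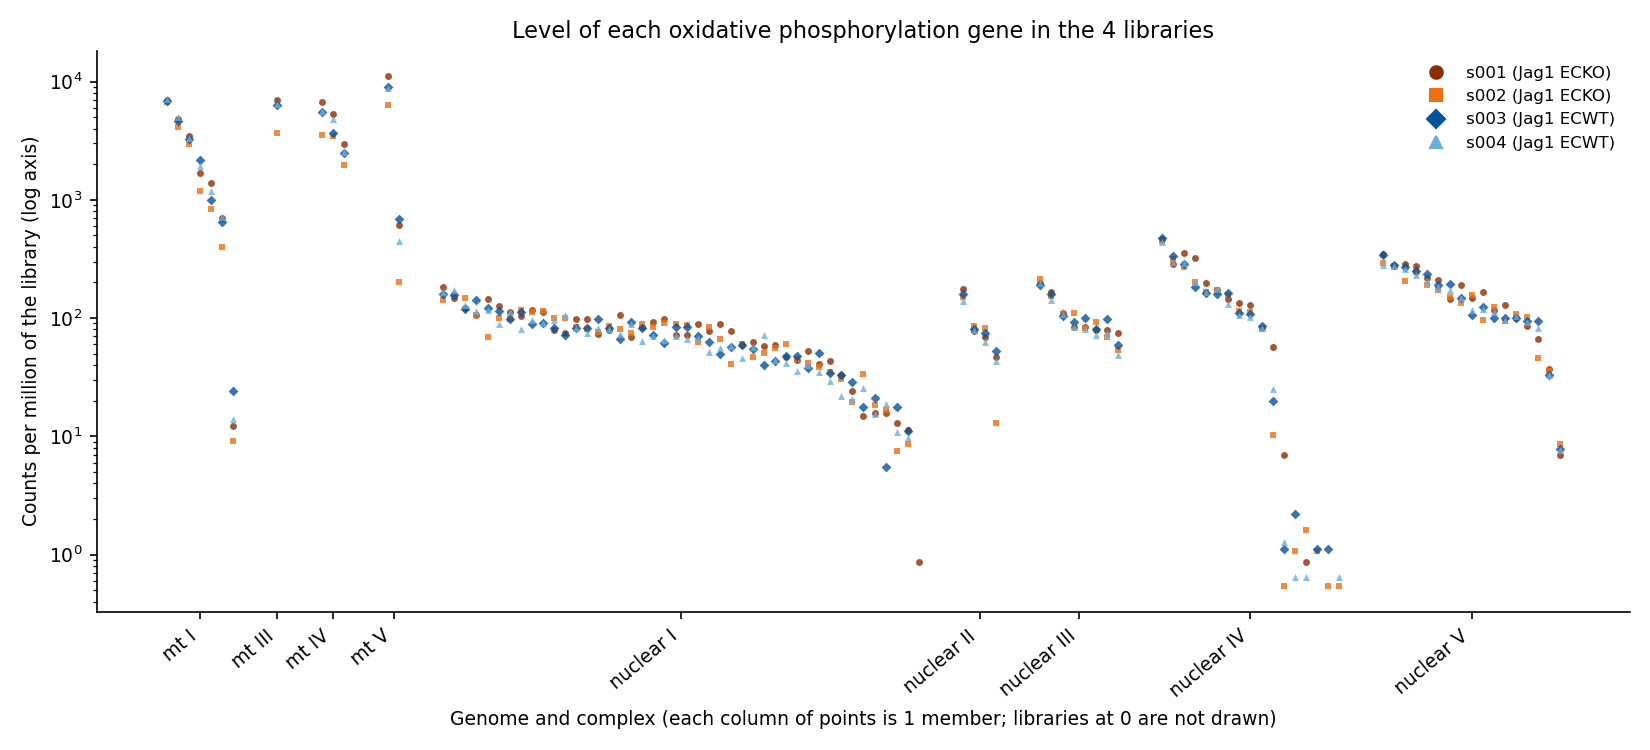
Level of each of the 103 members in the 4 libraries, in CPM of the library on a log axis. Each column of points is 1 member, grouped by genome and complex and ordered by mean level, and the 4 symbols are the libraries; libraries at 0 are not drawn. The mitochondrial-encoded members have a median of 3244 CPM and the nuclear-encoded ones of 82.2 CPM, with mtNd6 (mean 14.96 CPM) low among the nuclear-encoded levels and mtAtp8 and mtNd4l below Cox6a1 in s002.

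The make-up of the mitochondrial-encoded counts was not the same in each library. In s002 mtNd4 took 18.9% of them, against 13.3, 14.8 and 14.7% in s001, s003 and s004, and mtNd2 took 11.7% against 9.18, 9.996 and 10.5%. There mtAtp8 took 0.58% against 1.16, 1.499 and 0.93%, and mtCytb 10.5% against 13.1, 13.8 and 13.4%. In this measure s002 lay outside the range of the other libraries for each of those 4 genes. Other libraries stood apart for other genes. In s003 mtCo1 took 7.87% against 10.1, 9.80 and 10.1% in s001, s002 and s004. In s001 mtAtp6 took 21.0% against 17.8, 19.5 and 18.5% in s002, s003 and s004.

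Neighbouring mitochondrial genes that share bases differed widely in level. In the GRCm38 annotation mtAtp8 and mtAtp6 overlap by 43 bases (chrM:7927-7969, plus strand), and mtNd4l and mtNd4 by 7 bases (chrM:10167-10173, plus strand), because each pair is translated from 1 messenger RNA. Both stretches are shown because a read that lies within them cannot be given to 1 gene, with the start codon of the downstream gene in capitals:
mtAtp8/mtAtp6 overlap: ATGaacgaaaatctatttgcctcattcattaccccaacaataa
mtNd4l/mtNd4 overlap: ATGctaa
The downstream gene of the pair, which holds the 3′ end of the shared RNA, was 18.0 times as high as mtAtp8 for mtAtp6 and 11.2 times as high as mtNd4l for mtNd4. The levels of mtAtp8 and mtNd4l are uncertain, since reads of an overlap could be split in the counting, and the part of the counting in these differences was not tested. There were 2 further overlaps. The last base of mtAtp6 is the first of mtCo3 (chrM:8607, plus strand), and there the downstream gene was the lower, at 0.282 times mtAtp6. An overlap of 14 bases at chrM:13552-13565 lies between mtNd5 and mtNd6 on opposite strands.

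Nuclear-encoded members spread over a wide range. At a mean over the libraries of at least 100 CPM there were 36 of them, 46 lay between 10 and 100 CPM and 8 under 10 CPM. Cox6a1, a complex IV subunit, was the highest, at 467, 449, 475 and 442 CPM in s001 to s004, and differed little between libraries. Next in complex IV was Cox7a2l, a factor that helps to join complexes III and IV, at 286, 314, 333 and 296 CPM. In complex V, Atp5b, the catalytic beta subunit, had 349, 294, 342 and 283 CPM, and Atp5a1, the alpha subunit, 278, 276, 283 and 276 CPM. Uqcrh, the hinge protein of complex III, had 197, 215, 190 and 200 CPM (2 pseudogenes carry its name, so part of its counts is uncertain), and Uqcrb 166, 154, 159 and 142 CPM. The flavoprotein of complex II, Sdha, had 178, 150, 158 and 138 CPM, and Sdhc, which anchors the complex in the membrane, 77.5, 84.9, 80.8 and 79.6 CPM. Complex I was led by Ndufa6 (185, 143, 160 and 166 CPM) and Ndufb11 (149, 157, 156 and 172 CPM), both accessory subunits. The 10 assembly and coupling factors ranged from 7.76 CPM for Atp5s to 307 CPM for Cox7a2l, with a median of 20.3 CPM, and the 7 Ndufaf assembly factors of complex I among them from 10.2 to 29.6 CPM.

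Summed over a complex, the nuclear-encoded levels were close from library to library. Here and below members were assigned to complexes by symbol. Complex I therefore holds Ndufa4 and the Ndufaf assembly factors, complex IV Cox7a2l, and complex V the factors Atp5s and Atp5sl. Complex I gave 3302, 3106, 3034 and 2942 CPM, complex II 371, 330, 367 and 323 CPM, complex III 875, 883, 883 and 811 CPM, complex IV 2355, 2054, 2094 and 2025 CPM, and complex V 2812, 2439, 2678 and 2519 CPM. The mitochondrial-encoded sums spread more widely, with 6474 to 11689 CPM for complex V and 3689 to 6929 CPM for complex III, but 16130 to 19285 CPM for complex I. A few nuclear-encoded members varied far more than the rest. Cox7c, a small complex IV subunit, stood at 57.4, 10.3, 19.9 and 25.03 CPM, and Sdhd, the second membrane anchor of complex II, at 47.0, 13.0, 53.1 and 43.0 CPM. For both, s002 was the lowest library, and for Cox7c s001 stood above the other 3.

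Several complex IV subunits exist as tissue isoforms, and 1 form of each led in these cells. Cox4i1 stood at 323, 202, 184 and 202 CPM, whereas Cox4i2, the form known from lung and from low oxygen, had 3 UMIs in all cells together. Cox6a1 was the highest nuclear-encoded member, and its heart and muscle form Cox6a2 had 2 UMIs. Cox6b1 averaged 173 CPM (SD 16.0, n = 4 libraries) against 6.96, 0.54, 1.11 and 1.28 CPM for the testis form Cox6b2. Cox7a2 averaged 116 CPM (SD 12.5), and the heart and muscle form Cox7a1 had 5 UMIs. Cox8a stood at 354, 272, 288 and 293 CPM with 2 UMIs for Cox8c, and Ndufa4, named for complex I and now known as a complex IV subunit, at 144, 69.7, 122 and 117 CPM with 1 UMI for Ndufa4l2. The testis form Cox7b2 had 5 UMIs, and Cox8b was not analysed here. These counts were too low for any comparison of the rare isoforms, none of which passed the filter on low counts in any comparison.

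The start sites of some nuclear-encoded members, fewer than not, hold letters known as binding motifs of the factors that control respiratory genes. Promoters of 300 bases (250 before to 50 after the start, RefSeq, GRCm38.p6) were matched for 74 of the 90 members and searched on both strands. The core of NRF1 (GCATGCGC) was in 12 of them (16.2%) against 2.81% of 27025 promoters, and the core of YY1 (AAGATGGC) in 10 (13.5%) against 2.88%. The ETS core bound by GABP (CCGGAAGT) was in 5 (6.76%) against 4.0%, and the site of the ERR receptors (AAGGTCA) in 7 (9.46%) against 4.66%. Any of the 4 motifs was in 31 (41.9%) against 13.6%. Median GC content was 57.8% in the members and 52.7% in all promoters, and the shares were not adjusted for it. A match is a description of letters and not of binding. Shown are the promoters of the highest nuclear-encoded member, of the highest of complex I, of 1 complex III member with both an NRF1 and an ETS core, and of the housekeeping form Cox8a with 2 ETS cores, with the motifs in capitals (in GCGCATGCGC the NRF1 core is read on both strands):
Cox6a1 promoter, chr5:115348909-115349208, minus strand: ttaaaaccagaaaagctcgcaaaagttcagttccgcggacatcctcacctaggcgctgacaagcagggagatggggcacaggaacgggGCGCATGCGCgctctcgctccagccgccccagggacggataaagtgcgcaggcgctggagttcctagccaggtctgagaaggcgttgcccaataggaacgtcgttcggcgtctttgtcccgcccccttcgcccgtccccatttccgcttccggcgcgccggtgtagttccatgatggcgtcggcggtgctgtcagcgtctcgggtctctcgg
Ndufa6 promoter, chr15:82354242-82354541, minus strand: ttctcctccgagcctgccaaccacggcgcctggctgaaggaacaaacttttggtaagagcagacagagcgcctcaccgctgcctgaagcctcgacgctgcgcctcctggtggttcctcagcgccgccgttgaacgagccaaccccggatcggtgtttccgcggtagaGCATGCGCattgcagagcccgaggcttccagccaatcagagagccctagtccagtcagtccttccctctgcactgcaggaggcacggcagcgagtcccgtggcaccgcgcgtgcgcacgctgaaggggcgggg
Uqcr11 promoter, chr10:80406772-80407071, minus strand: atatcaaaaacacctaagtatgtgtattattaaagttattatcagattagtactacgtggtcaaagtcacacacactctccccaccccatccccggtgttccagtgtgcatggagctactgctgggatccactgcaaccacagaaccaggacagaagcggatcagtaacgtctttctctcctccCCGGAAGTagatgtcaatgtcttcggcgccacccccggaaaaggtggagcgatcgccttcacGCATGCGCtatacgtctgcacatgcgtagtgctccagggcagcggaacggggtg
Cox8a promoter, chr19:7217567-7217866, minus strand: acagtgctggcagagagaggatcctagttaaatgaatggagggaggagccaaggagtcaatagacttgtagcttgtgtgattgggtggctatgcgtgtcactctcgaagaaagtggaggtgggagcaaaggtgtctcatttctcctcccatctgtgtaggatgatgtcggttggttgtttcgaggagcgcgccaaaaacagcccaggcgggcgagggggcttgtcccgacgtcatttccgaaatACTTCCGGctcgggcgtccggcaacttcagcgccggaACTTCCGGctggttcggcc
Among all 4, Cox6a1, Ndufa6 and Cox8a are above 100 CPM, and Uqcr11, a small subunit of complex III, averaged 58.9 CPM.

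Per cell, the mitochondrial-encoded members took up a median of 4.89, 3.40, 4.63 and 4.58% of the counts in s001 to s004, and the nuclear-encoded members 0.987, 0.892, 0.922 and 0.863%. These are shares of all counts deposited for a cell, with Rn45s and the mitochondrial genes in the total, and other denominators give other shares. The methods describe the mitochondrial reads of these cells as negligible and name no denominator, so it is uncertain whether the share here is the same quantity. The spread between cells was much wider for the mitochondrial share, which reached 41.3, 21.2, 21.6 and 16.3% in the highest cell of each library. Those 4 cells had 494, 785, 1166 and 1819 genes detected, and their nuclear-encoded shares were 1.32, 0.265, 1.22 and 0.769%, within the range of the other cells. Above 10% there were 14, 11, 7 and 20 cells. The median cell held UMIs of 12 of the 13 mitochondrial-encoded members in each library, and of 24, 33, 29 and 28 of the 90 nuclear-encoded ones.

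The shares of the 2 genomes showed almost no relation across cells. Within libraries Spearman's rho between the mitochondrial and the nuclear share was 0.02, 0.03, 0.05 and 0.01 (272, 273, 165 and 281 cells). Members of 1 genome did move together. With the members dealt alternately, in alphabetical order, into 2 groups, the summed shares of the groups gave a rho of 0.78 to 0.91 for the mitochondrial-encoded and 0.32 to 0.49 for the nuclear-encoded members. With each cell thinned to 1000 counts these fell to 0.67 to 0.77 and 0.13 to 0.23, and rho between the genomes was -0.03 to 0.02. These are descriptions: cells of 1 library share its preparation, the shares of a cell share its total as their denominator, and nuclear-encoded counts are few, with a median of 34 to 50 UMIs a cell against 172.5 to 224 for the mitochondrial-encoded members. The share of Rn45s ran against both, with a rho of -0.20 to -0.40 with the mitochondrial and -0.32 to -0.53 with the nuclear share.

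The 2 genomes parted by the number of genes detected in a cell. The deposited table holds 167 cells with 1200 or fewer genes, the number that the filter in the methods asks a cell to exceed, and these are among the 991 cells. From these cells through cells with up to 1800 and up to 2400 to cells with more than 2400 genes, the median mitochondrial share was 5.86, 4.91, 4.33 and 4.34% in s001 and 5.80, 5.51, 3.31 and 2.70% in s002. It was 7.51, 5.15, 4.47 and 3.997% in s003 and 7.91, 4.93, 4.38 and 4.14% in s004. The share was highest in the cells with the fewest genes in all 4 libraries. Nuclear-encoded shares were nearly level over the same bins, from 0.930 to 1.02% in s001, 0.862 to 0.943% in s002, 0.909 to 1.03% in s003 and 0.839 to 0.873% in s004.

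**Figure D2:**
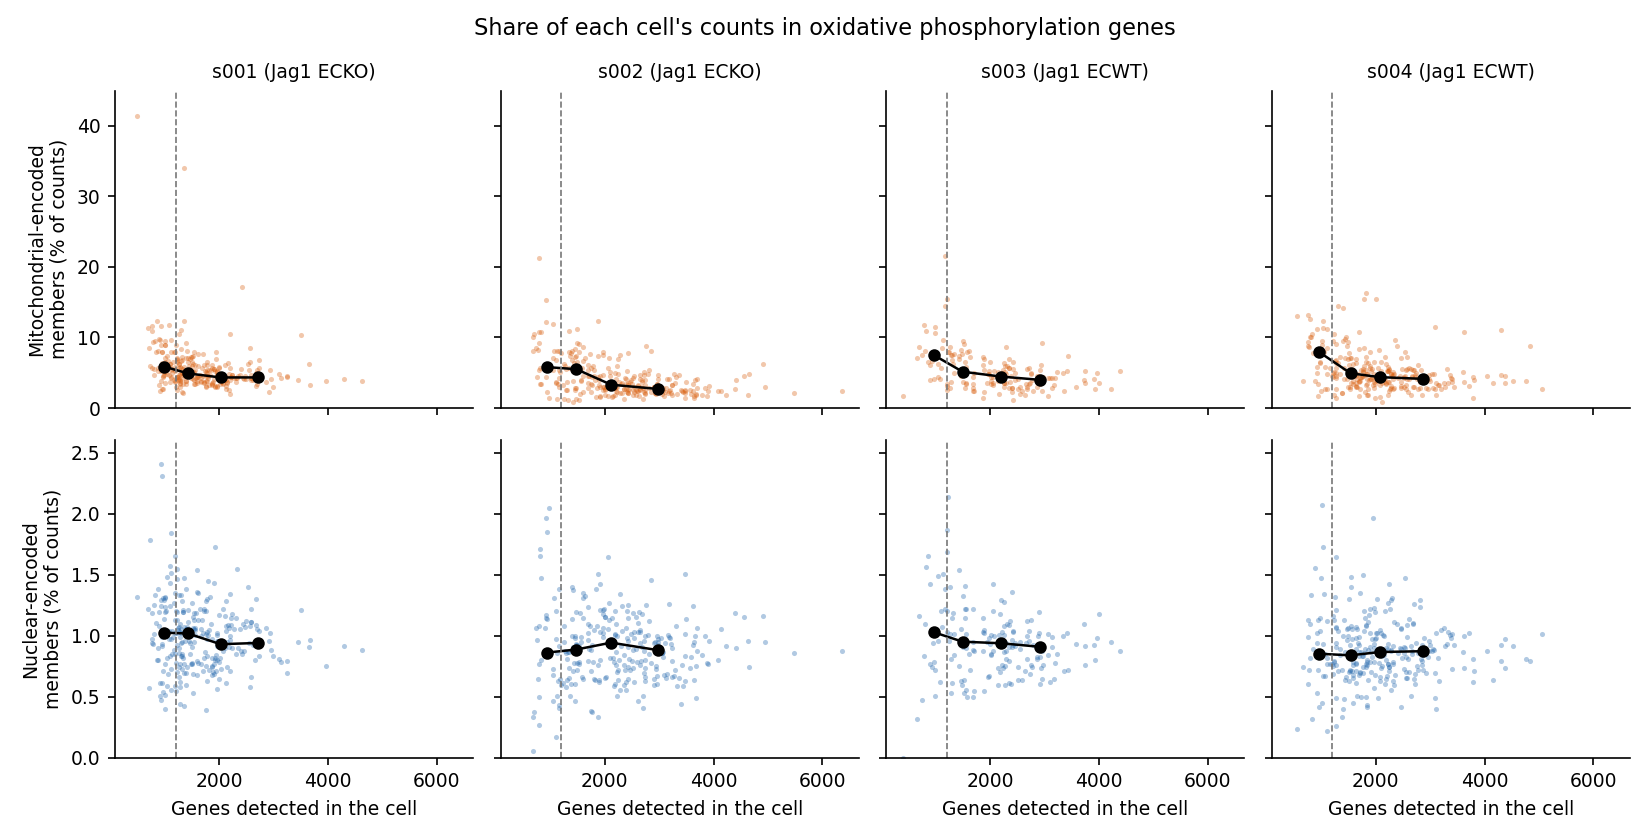
Share of each cell's counts (percent) in the mitochondrial-encoded (upper row) and nuclear-encoded members (lower row) against the number of genes detected in the cell, for the 4 libraries. Each point is 1 cell, black points joined by lines are medians of the 4 bins of genes detected, drawn at the median gene number of the bin, and the dashed line marks 1200 genes. The mitochondrial share is highest in the bin with the fewest genes in each library (5.80 to 7.91%), and the nuclear share stays between 0.839 and 1.03% in every bin.

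Pooled over cells, the mitochondrial-encoded level was higher in cells with 1200 or fewer genes (70, 37, 25 and 35 cells) than in cells with more (202, 236, 140 and 246 cells) by a log2 difference of 0.42, 1.05, 0.99 and 0.66 in s001 to s004 (mean 0.78, SD 0.30, n = 4 libraries). For the nuclear-encoded members it was 0.13, -0.03, 0.13 and 0.06 (mean 0.07, SD 0.08), and for the ratio of the genomes 0.29, 1.08, 0.86 and 0.60. In each library the mitochondrial difference was larger than the nuclear one. Among cells above the limit alone (up to 2400 genes against more), the mitochondrial log2 difference was 0.02, 0.52, 0.28 and 0.22 in s001 to s004 (mean 0.26, SD 0.21), and that of the ratio -0.02, 0.49, 0.18 and 0.19 (mean 0.21, SD 0.21). There the libraries differed: s001 showed almost none, its ratio lay just below zero, and without s002 the means were 0.18 and 0.12. The counts of a cell add up to its total, so a larger mitochondrial share leaves fewer counts in which other genes can be detected, and the number of genes is not independent of it. Across cells rho between genes detected and the mitochondrial share was -0.35 to -0.48, and between genes detected after thinning to 1000 counts and the mitochondrial share -0.09 to -0.35.

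Gene by gene, counts were summed per library and class of cells and fitted with the library as a block. Of 6721 genes tested, 37 were called at an adjusted p under 0.05 (0.551%), 29 of them higher in cells with few genes (0.431%) and 8 lower (0.119%). Of the 12 mitochondrial-encoded members tested, 11 rose, with a median log2 difference of 0.83 against -0.05 over all genes tested. All 12 were higher in each of the 4 libraries, where 4.84% of all genes tested were (325 genes). The mitochondrial-encoded members that rose belong to complexes I, III, IV and V.

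The largest rise was that of mtNd3, which stood at 1746, 2341, 2704 and 1985 CPM in the cells with few genes of s001 to s004 and at 1331, 771, 912 and 1145 CPM in the other cells, without overlap of the classes (log2 difference 1.08, SE 0.14, edgeR's quasi-likelihood test with Benjamini-Hochberg adjusted p = 5.897e-12). By library the log2 difference of mtNd3 was 0.39, 1.60, 1.57 and 0.79 in s001 to s004. Its SE draws on spread shared across genes and is not the spread of these values, and the same holds for the other members. mtNd1 had 4663, 5867, 7112 and 5524 CPM against 3264, 2814, 3043 and 3260 CPM (0.90, SE 0.13, adjusted p = 1.167e-08 by the same edgeR test). The subunits mtCo2 and mtAtp6 both had a log2 difference of 0.86, mtAtp8 0.84, mtCytb and mtNd2 0.83, mtCo3 0.79 and mtNd4 0.71, with SEs of 0.13 to 0.16 and adjusted p-values of 1.064e-07 to 5.903e-05 in edgeR. In mtCytb the classes stood at 9009, 8608, 11998 and 9401 CPM against 6642, 3485, 6069 and 6303 CPM. mtCo1 and mtNd5 moved least among those called, at 0.54 and 0.50 (SE 0.13 each, edgeR adjusted p = 0.00812 and 0.0366). Without s002 both missed the threshold (0.50 and 0.37, edgeR adjusted p = 0.292 and 0.753), as they did without s004 (0.57 and 0.50, edgeR adjusted p = 0.218 and 0.431). mtNd4l had 0.36 (SE 0.16, edgeR adjusted p = 0.516) with 771, 557, 727 and 1046 CPM against 692, 395, 640 and 695 CPM, and mtNd6 had too few counts to be tested.

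Of the 79 nuclear-encoded members tested, 1 was called and 6 were higher in all 4 libraries. Their median log2 difference was 0.03, with 44 above and 35 below zero. Cox6c, a subunit of complex IV, was the member called, at 234, 328, 364 and 292 CPM in the cells with few genes and 165, 165, 149 and 170 CPM in the others (0.87, SE 0.23, edgeR adjusted p = 0.0292). The classes did not overlap, but the values of the cells with few genes rest on 31, 23, 16 and 19 counts. The call was lost without s002, s003 or s004 (log2 difference 0.80, 0.77 and 0.89, edgeR adjusted p = 0.279, 0.325 and 0.223) and stood without s001. With cells divided by their genes after thinning the direction turned (-0.05), and with the limit at 1500 genes or a division by total count the call was lost (0.56 and 0.76, edgeR adjusted p = 0.112 and 0.315). By complex, the medians were 0.12 for complex I (40 tested), -0.58 for complex II (4), -0.08 for complex III (8), 0.17 for complex IV (11) and 0.03 for complex V (16). Sdhc was the lowest of all members, at 37.8, 28.5, 45.4 and 15.4 CPM against 82.7, 87.1, 82.6 and 82.4 CPM, but did not pass the test (-1.38, SE 0.47, edgeR adjusted p = 0.227). In the cells with few genes it had 5, 2, 2 and 1 counts. Nuclear-encoded members had a median SE of 0.34 against 0.13 for the mitochondrial-encoded ones, so that a difference of the mitochondrial size could be missed in a single nuclear-encoded gene.

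**Figure D3:**
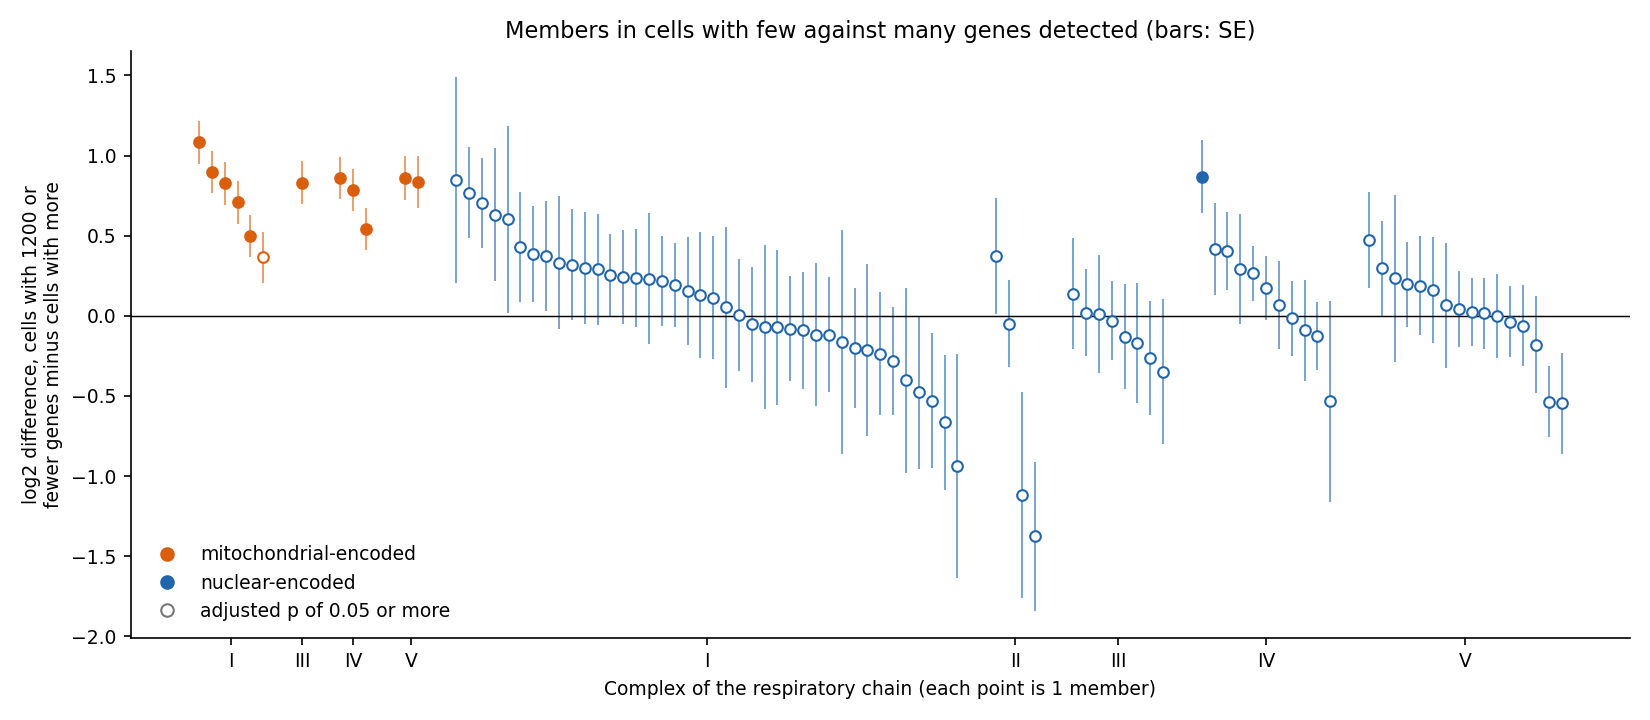
log2 difference of each tested member between cells with 1200 or fewer genes and cells with more, from the fit with the library as a block, with bars for the SE. Each point is 1 member, grouped by genome and complex, and filled points have an adjusted p under 0.05. Of the 12 mitochondrial-encoded members 11 are filled, between 0.50 and 1.08, and of the 79 nuclear-encoded members only Cox6c at 0.87.

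Other genes moved beside the members. The 17 further genes called higher included Kcnq1ot1, a long nuclear non-coding RNA (6825, 37256, 47628 and 43975 CPM in the cells with few genes against 4482, 20857, 23093 and 26839 CPM, log2 difference 0.81, SE 0.14), Meg3, another non-coding RNA (0.79, SE 0.21), and gene models such as Gm17821 (0.86, SE 0.14). The 8 called lower were Rn45s (-0.86, SE 0.16), Mir5109 (-1.40, SE 0.14), Ppp1r12a (-1.88, SE 0.46) and Igfbp5 (-1.58, SE 0.39), the fibroblast marker Dcn (-0.91, SE 0.17) and the VSMC markers Myh11 (-1.49, SE 0.32), Tagln (-1.39, SE 0.28) and Acta2 (-0.75, SE 0.18). Of the 6 VSMC markers tested 3 were called lower, of the 6 fibroblast markers 1 and of the 11 EC markers 0, with medians of -0.83, -0.50 and 0.06. The 3 VSMC markers called were lower in s001 and s004. In s002 Myh11, Tagln and Acta2 were higher in the cells with few genes (314, 257 and 1213 against 202, 157 and 823 CPM). Acta2 was also higher there in s003 (205 against 190 CPM), where Myh11 and Tagln were lower. Summed VSMC markers stood at 589, 2504, 341 and 292 CPM in the cells with few genes and 3371, 1543, 388 and 1234 CPM in the others. Summed fibroblast markers stood at 786, 1042, 613 and 1415 CPM against 1248, 2065, 1555 and 1507 CPM. Among the cells led by EC markers alone the same 11 mitochondrial-encoded members and Cox6c were called, with a median mitochondrial log2 difference of 0.83. With scaling factors made without Rn45s and the mitochondrial-encoded genes the count was again 11. The red blood cell markers were at 8481 CPM in the cells with few genes of s001 and at most 15.4 CPM in those of the other libraries, and without s001 there were 11 calls among the mitochondrial-encoded members, at a median of 0.96. Leukocyte markers had no counts in the cells with few genes. The part of the non-coding RNAs in the result was not tested.

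The result kept its direction under other ways to divide the cells. With the limit at 1500 genes 11 mitochondrial-encoded members were called, with each cell thinned to 1000 counts before summing 10, with cells divided by their genes after thinning 10, and with cells divided by total count 8. The median mitochondrial log2 difference was 0.76, 0.77, 0.48 and 0.65, and the nuclear median 0.04, 0.09, -0.11 and 0.08. Between cells with over 1200 and up to 2400 genes and cells with more, mtCo2 alone was called, and the medians were 0.30 and 0.06. Without the library block, which leaves the differences between libraries in the error, 0 members and 0 genes were called by edgeR, with 365 genes at an unadjusted p under 0.05, at a median mitochondrial difference of 0.80. With the block DESeq2 called the same 12 members.

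No gene of the other metabolic lists was called in the comparison of cells with few and many genes, where 0.551% of all genes tested were. These were 0 of 16 helper genes outside the members (cytochromes c and c1, assembly factors, the ADP/ATP carriers and the porins Vdac1 to Vdac3), 0 of 15 genes of the tricarboxylic acid (TCA) cycle, 0 of 12 genes of glycolysis and 0 of 9 genes of mitochondrial biogenesis and mitochondrial DNA expression, with medians of 0.10, -0.24, -0.30 and 0.07 against -0.05 over all genes tested. Below zero lay 6 of 16, 9 of 15, 10 of 12 and 4 of 9 of them. Their median SEs were 0.37, 0.45, 0.34 and 0.57, against 0.13 for the mitochondrial-encoded members. A difference of the mitochondrial size could therefore be missed in a single gene of these lists. At an unadjusted p under 0.05 in edgeR there were 1, 0, 2 and 0, and the 2 of glycolysis were Pgk1 (-1.79, SE 0.57) and Ldha (-0.76, SE 0.28), with edgeR adjusted p-values of 0.154 and 0.329, both named after their values were seen.

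The difference between cells with few and many genes did not pass a test of its own between the labels. Of 6721 genes 1 was called (0.0149%) and it was no member. Over the 12 mitochondrial-encoded members tested the labelled difference of the differences ranged from -0.20 for mtNd4 to 0.19 for mtNd5, with SEs of 0.27 to 0.31, with a median of -0.09, and over the 79 nuclear-encoded members its median was -0.05. Neither median kept its sign when 1 library was left out: the mitochondrial median was 0.27 without s001, -0.43 without s002, 0.05 without s003 and -0.14 without s004, and the nuclear median -0.09, 0.06, 0.04 and 0.10. The 5 members of smallest unadjusted p were the assembly factor Ndufaf3 and the complex I subunits Ndufb2, Ndufs1, Ndufab1 and Ndufa13 (edgeR adjusted p = 0.996).

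Between labels, with all cells of a library summed, 0 of 9932 genes were called by edgeR (0%), with 516 at an unadjusted p under 0.05, and DESeq2 called 3 genes, none of them a member. The 13 mitochondrial-encoded members had a median log2 difference (Jag1 ECKO minus Jag1 ECWT) of -0.10 and 11 of them lay below zero. The 83 nuclear-encoded members tested had a median of 0.10 and 60 of them lay above zero, where the median of all genes was 0.00. By complex the nuclear medians were 0.13 for complex I, 0.10 for II and III, 0.12 for IV and 0.06 for V. With 2 libraries a label an exact permutation test cannot go below p = 0.333. Both libraries labelled Jag1 ECKO lay above both others for 0 of the 13 mitochondrial-encoded and 19 of the 83 nuclear-encoded members, against 16.3% of all genes, and below them for 2 and 6, against 19.0%.

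The 5 members of smallest unadjusted p were Ndufa11, Atp5f1, mtNd5, Atp5d and Ndufb7, each with an edgeR adjusted p of 0.889. Ndufa11, an accessory subunit of complex I, stood at 98.4 and 90.8 CPM in s001 and s002 and 62.0 and 64.8 CPM in s003 and s004 (log2 difference 0.58, SE 0.20). Atp5f1, the peripheral stalk subunit b of complex V, stood at 67.0 and 45.9 against 94.0 and 82.2 CPM (-0.64, SE 0.23), and mtNd5, a proton-pumping subunit of complex I, at 1679 and 1179 against 2157 and 1926 CPM (-0.51, SE 0.19). Atp5d, the delta subunit of complex V, stood at 149 and 157 against 105 and 116 CPM (0.48, SE 0.19), and Ndufb7 at 77.5 and 83.2 against 63.1 and 51.3 CPM (0.52, SE 0.22). In all 5 the labels did not overlap, but they were picked by smallest p, which favours this. Over all genes tested 16.3% lay above and 19.0% below without overlap. The values depended on which libraries were used. Without s001, 82 of 10791 genes were called (0.760%) and among them mtAtp8 (-1.41, SE 0.22), mtCytb (-0.73, SE 0.16), mtNd5 (-0.72, SE 0.17) and Sdhd (-1.79, SE 0.34), and the mitochondrial median was -0.44. Without s002, 223 of 10128 genes were called (2.20%) with Cox7c (1.28, SE 0.31) as the single member, and the mitochondrial median was 0.08. Without s003 or s004 the mitochondrial median was -0.18 and -0.01 and no gene was called, with 160 and 236 at an unadjusted p under 0.05 in edgeR. With 1 library left under a label, that library is assumed to vary like the others. Sdhd and Cox7c are the members whose levels in s002 and s001 stood apart above.

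**Figure D4:**
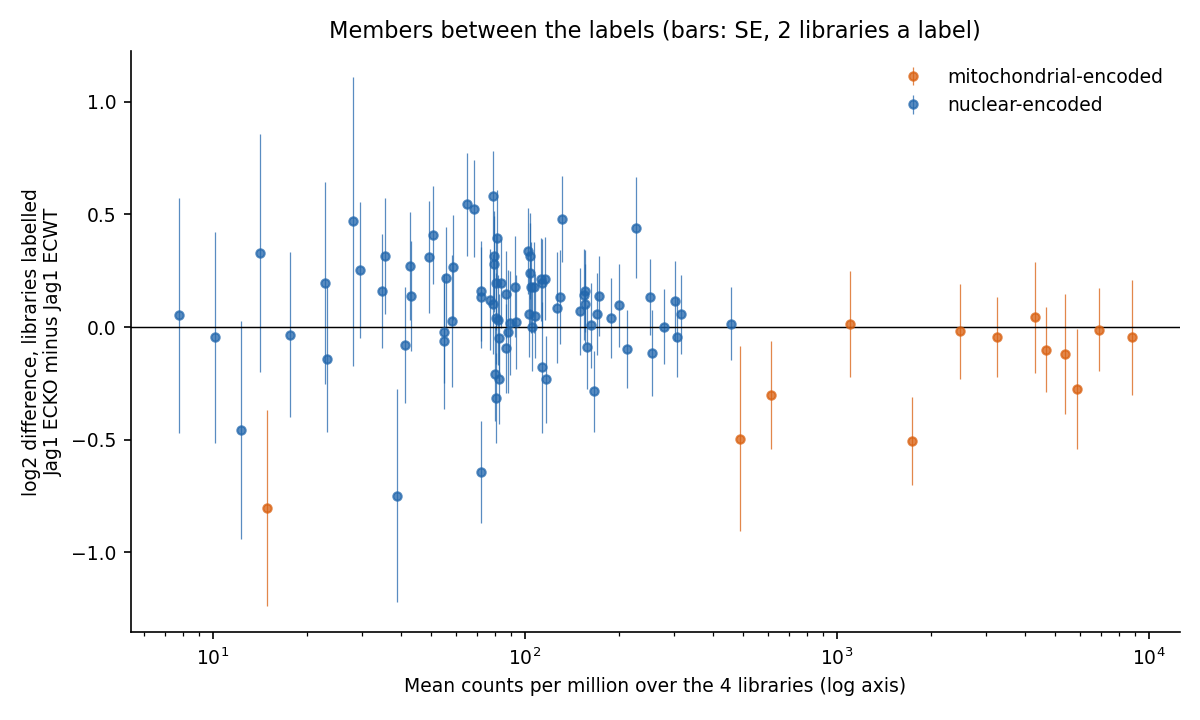
log2 difference of each tested member between the libraries labelled Jag1 ECKO and Jag1 ECWT (2 libraries each), with bars for the SE, against its mean level in CPM on a log axis. Mitochondrial-encoded members (13, median -0.10) lie mostly below zero and nuclear-encoded ones (83, median 0.10) mostly above, and none passed the test.

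Beside these, the 8 VSMC markers all lay above zero between labels, with a median log2 difference of 1.72 and summed levels of 3051 and 1579 against 385 and 1195 CPM, and none was called, with 5 of the 8 at an unadjusted p under 0.05 in edgeR. Of the 8 fibroblast markers 7 lay above zero (median 0.38, highest 1.49), 1 had an unadjusted p under 0.05 and none was called. Among the cells led by EC markers alone the medians of the members were -0.09 and 0.11. In the other metabolic lists 0 genes were called between labels, with medians of -0.09 for 25 of the helper genes, -0.10 for 16 of the TCA cycle, 0.26 for 14 of glycolysis and -0.12 for 14 of mitochondrial biogenesis. All 14 glycolysis genes lay above zero, and at an unadjusted p under 0.05 in edgeR there were 2, 0, 0 and 0 in the 4 lists.

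Finally, 46 cells (9, 18, 5 and 14) in which the summed fibroblast and VSMC markers exceeded the EC markers were compared with the other 945 cells. Of 6918 genes 475 were called (6.87%), 235 higher (3.40%) and 240 lower (3.47%), and the markers that divided the cells are no finding. None of the 92 members tested was called by edgeR. At an unadjusted p under 0.05 in edgeR there were 0 of them, against 1027 of the 6918 genes. DESeq2 called 0 members as well. The mitochondrial-encoded level of these cells differed from that of the others by a log2 of 0.35, -0.08, -0.61 and 0.75 in s001 to s004, with no common direction, and the nuclear-encoded level by 0.14, 0.07, -0.02 and -0.02. The muscle isoforms Cox6a2 and Cox7a1 had 1 and 0 UMIs in these cells. The smallest unadjusted p-values were those of Ndufb6, Atp5sl, Sdhc, Cox6c and Ndufaf2 (log2 difference 0.69, -1.36, 0.63, 0.55 and 1.05). Of the other lists, cytochrome c1 (Cyc1, a complex III subunit whose symbol lies outside the families used here) was called higher among 16 genes (1.19, SE 0.34, edgeR adjusted p = 0.0204), and Idh3a, which makes NADH in the TCA cycle, among 15 (1.66, SE 0.48, edgeR adjusted p = 0.0234). Single calls in lists of 16 and 15 genes are near the 6.87% called over all genes. Of glycolysis 0 of 12 and of mitochondrial biogenesis 0 of 9 were called, with 1 and 0 at an unadjusted p under 0.05 in edgeR. The 5 to 18 cells a library limit its precision, and 66 cells lay near the limit between the classes, with 0.333 to 0.667 of their summed markers from fibroblasts and VSMCs.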

How the data were processed

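The deposited values were estimated counts of transcripts: per the submitters' processing notes and the methods, the authors aligned the reads with STAR to GRCm38, used Seurat 3.1, and counted UMIs per gene and cell. The deposited table holds each UMI number converted to an estimated count for chance collisions among the 4096 possible barcodes of 6 bases; inverting that conversion gave whole numbers to within 3.638e-12. The table holds 991 cells, of which 824 have more than the 1200 genes that the study's filter asks for. All were kept, and doublets were not called.

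Estimated counts were summed per library, or per library and class of cells, rounded to whole counts and tested with edgeR 4.0.16 (R 4.3.3, TMM, filterByExpr, quasi-likelihood test, Benjamini-Hochberg adjustment over all genes tested, threshold 0.05). The library was a block wherever 1 library gave both classes. DESeq2 1.42.0 was an alternative. The fits were tested on simulated data. Shares, CPM and Spearman's rho were computed in Python 3.11.15. Thinning to 1000 counts drew from the rounded estimated counts of each cell.

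The members and lists were chosen with earlier results of these data known. Named were all mitochondrial-encoded members, the 2 highest nuclear-encoded ones per complex, the tissue isoforms, and in each comparison the members called or, with none called, the 5 of smallest p. Cells were led by fibroblast and VSMC markers where these summed above the EC markers. Alternatives were other scalings, filters, limits and class rules, and leaving out each library.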

Additional observations from a re-analysis of the deposited data

How the results depend on the processing

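The rise of the mitochondrial-encoded members in cells with few genes kept its direction in every alternative run, with 8 to 11 members called except where named here. Without the replicate block (the library) 0 genes were called, among them 0 mitochondrial-encoded and 0 nuclear-encoded members, and in cells with over 1200 genes (up to 2400 against more) 61 genes, 1 mitochondrial-encoded and 0 nuclear-encoded members, with a median log2 difference of the ratio over the libraries of 0.18 (0.1844). The count of genes called, 37, was 76 at 1500 genes, 22 with cells divided by total count and 24 with cells thinned to 1000 counts. The nuclear-encoded count of 1 became 0 with no low-count filter, at 1500 genes, with cells divided by total count or by genes after thinning, and 0 to 1 on leaving out 1 library. Cox6c reversed to -0.05 (-0.05427) with cells divided by genes after thinning. Between labels, where 0 genes and 0 members were called, DESeq2 called 3, no low-count filter 141, and leaving out 1 library 0 to 223 genes and 0 to 4 members. The difference by label, 1 gene, was 0 with DESeq2 and 0 to 2 on leaving out 1 library. Between cell classes 88 genes were called after thinning, where fewer genes could be tested, and 227 to 630 on leaving out 1 library. Thinning before summing and the limit of 2400 genes were chosen after seeing the data. Except for fewer genes or libraries tested, the cause of these changes was not tested. At 1000 counts a cell 38 nuclear-encoded members could be tested in the comparison by genes detected, against 79 at full depth.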
